A study of Mus musculus with 8 samples.

Results

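Keratins 7, 8, 18, 19 and 20, with osteopontin, the chloride channel Cftr, mucin 1, prominin 1 and Epcam, mark duct lining and other simple epithelia of the pancreas, and their transcripts were followed in islets with Notch activated in β cells. The genes were chosen by symbol, with earlier results of these data known but by a rule that uses no measured value, and all 10 of 10 (Krt7, Krt8, Krt18, Krt19, Krt20, Spp1, Cftr, Muc1, Prom1 and Epcam) were found among the 32531 gene symbols of the count table. RNA-Seq was done on islets from 4 controls and from 4 β-tetO-NICD mice, all of a mixed C57BL/6J, 129X1/SvJ and BALB/c background. Both groups carried RIP-Cre, in which the Ins2 promoter drives Cre in β cells, and Rosa26-rtTA, and both received doxycycline (Dox) for 8 weeks. The tetO_NICD transgene, which encodes the intracellular domain of Notch1 (NICD), was carried only by β-tetO-NICD mice, and the labels give no age. β-tetO-NICD islets are also called Notch-active islets. Whole islets were sequenced, so β cells were not separated from the other cells of the preparation.

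Keratins form filaments from pairs of an acidic (type I) and a basic (type II) protein. Krt8 and Krt18 are the pair of simple epithelia in general, while Krt7 and Krt19 are added in ducts, and Krt20 belongs to intestinal and urothelial surfaces. Duct cells share an embryonic origin with endocrine and acinar cells, and Notch favours the duct over the endocrine fate in the developing pancreas. Epithelial markers of this kind are read both as a sign of duct tissue carried along with islets and as a sign of a change in epithelial state.

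Library totals were between 21701223 and 26413146 counts, and 3 counts, used as the floor of detection, were at most 0.151 CPM (counts scaled to 1e6 per library with edgeR's TMM factors). This floor covers counting error only. Notch1 counts were between 1051 and 1562 in controls and between 11388 and 36628 in Notch-active islets, as their labels require. The islet identity of the samples was checked with 9 β cell markers, whose summed level was between 146000 and 180200 CPM in controls and between 65010 and 157500 CPM in Notch-active islets. A trend with transcript length, which RNA quality can set, moved with the groups. Deviations from the mean over libraries were rank-correlated with transcript length over genes, which gives a description without a p value. Controls 1, 2 and 4 gave rho of 0.418, 0.467 and 0.497, and the first β-tetO-NICD library gave 0.446. Control 3 gave −0.174, and the β-tetO-NICD libraries numbered 2, 4 and 5 gave −0.521, −0.360 and −0.515. The β-tetO-NICD columns are numbered 1, 2, 4 and 5, and the last 2 of them are settled for the group but not for a mouse. The Y-linked gene Eif2s3y was read 1300 times in control 2, 1527 times in control 4 and 1465 times in the fifth-numbered β-tetO-NICD library, and no more than 1 time in any other. The paper states that gene expression was measured in islets of male mice, which the libraries without these reads do not bear out. The groups are uneven in this, and the sex of the mice was not settled.

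Krt8 and Krt18 lie next to each other on chromosome 15 of GRCm38, Krt8 from 101996698 to 102004482 on the minus strand and Krt18 from 102028180 to 102032027 on the plus strand. Their promoters are shown because these 2 genes gave the most abundant keratin transcripts per length and had nearly equal read counts, and that of Krt90 because it had the lowest p value of the other keratins. The windows hold the 250 bases before the RefSeq start (GRCm38.p6), 5′ to 3′ on the strand of the gene, chr15:102004343-102004592 for Krt8, chr15:102027966-102028215 for Krt18 and chr15:101562951-101563200 for Krt90. Capitals mark TGGGAA, the core letters bound by the Notch partner Rbpj, or its reverse complement TTCCCA.
Krt8: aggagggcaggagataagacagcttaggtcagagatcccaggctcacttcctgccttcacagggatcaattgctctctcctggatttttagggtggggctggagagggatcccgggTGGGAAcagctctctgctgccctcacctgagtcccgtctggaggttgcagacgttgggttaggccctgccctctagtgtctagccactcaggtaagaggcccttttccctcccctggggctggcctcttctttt
Krt18: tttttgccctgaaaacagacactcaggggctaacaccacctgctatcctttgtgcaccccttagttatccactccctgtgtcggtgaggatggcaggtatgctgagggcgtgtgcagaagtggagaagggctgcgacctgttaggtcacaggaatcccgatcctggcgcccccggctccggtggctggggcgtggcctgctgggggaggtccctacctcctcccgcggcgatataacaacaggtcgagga
Krt90: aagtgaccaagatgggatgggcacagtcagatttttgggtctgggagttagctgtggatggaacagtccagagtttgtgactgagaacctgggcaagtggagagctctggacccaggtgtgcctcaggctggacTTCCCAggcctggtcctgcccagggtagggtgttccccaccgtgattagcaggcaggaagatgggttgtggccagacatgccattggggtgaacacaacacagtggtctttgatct
The Krt8 window held 1 match, which began 134 bases before the start, and the Krt90 window 1 match, which began 116 bases before it, while no match lay in the Krt18 window. The Krt8 and Krt18 windows, set by the RefSeq starts, partly overlap the longer gene extents given above from GENCODE M21, and the Krt8 match lies inside that extent. Of the genes followed here, 9 had an entry in the promoter table, with 11 windows in all, and 2 of those windows (Krt8 and Prom1) held the letters, against 21.6% of all 32851 windows. Krt19 was without an entry. A match describes letters and not binding.

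No duct or simple keratin gene passed the test between the groups. Krt20 fell short of the minimum (10 counts in 4 or more libraries out of 8), and of the 9 genes tested 0 were called higher and 0 lower at an adjusted p under 0.05 by edgeR's quasi-likelihood test, where 4.19% of all 15082 tested genes were called higher and 2.57% lower. At an unadjusted p under 0.05 there were 4 of the 9 (Spp1, Krt19 and Krt8 with positive estimates, Cftr with a negative one), against 31.6% of all tested genes. Limma-voom called 0 of the 9 and 7.18% of all genes. DESeq2's Wald test called the same 4 genes that had an unadjusted p under 0.05 with edgeR, and 18.2% of all genes. The median log2 fold change was 0.46 over the 9 genes and 0.00071 over all tested genes, with 7 positive and 2 negative estimates. Of the 7, those of Krt8, Krt18, Prom1 and Epcam turned negative when libraries were scaled to the housekeeping gene Ppia, and those of Krt19, Spp1 and Muc1 stayed positive in every alternative run. In 1 of the 9, Krt19, every β-tetO-NICD library lay above every control, as in 8.22% of all genes, and in 0 of the 9 every one lay below, as in 7.92% of all genes. RNA from a whole islet preparation does not tell more cells of a type from more RNA per cell.

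**Figure D1:**
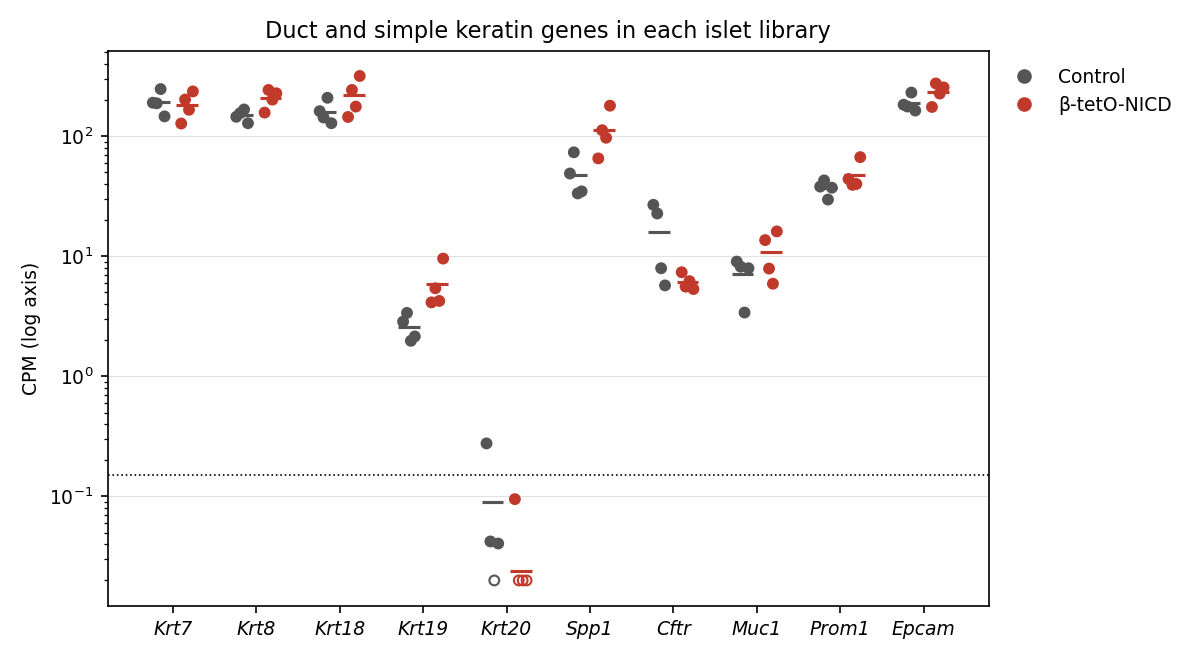
CPM (log axis) of the 10 duct and simple keratin genes in each library, with controls in grey, β-tetO-NICD in red and short lines at the group means. Open circles at the bottom stand for libraries with 0 counts, the dotted line is the highest floor of 3 counts (0.151 CPM), and Krt19 is the only gene whose groups do not overlap.

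The simple keratin pair and its duct counterpart were read first. Krt8, the type II keratin of simple epithelia, was at 145.1, 155.6, 166.9 and 128.3 CPM in controls 1 to 4 and at 157.2, 242.8, 201.6 and 227.8 CPM in Notch-active libraries 1, 2, 4 and 5. Library 1 of the β-tetO-NICD group lay within the control range and the other 3 lay above it. The log2 fold change was 0.48 (with standard error 0.17 and adjusted p = 0.106 by edgeR's quasi-likelihood test), with a 95% interval from 0.09 to 0.86. Krt18, its type I partner, was at 161.6, 143.1, 208.9 and 128.3 CPM in controls and at 144.6, 242.7, 176.4 and 317.3 CPM in Notch-active islets. Its groups overlapped more widely, as control 3 exceeded 2 of the 4 β-tetO-NICD libraries. Its log2 fold change was 0.46 (with standard error 0.26 and adjusted p = 0.241), with an interval from −0.12 to 1.03.

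Krt8 and Krt18 gave nearly equal read counts, although the principal transcript of Krt8 (1958 bases) is longer than that of Krt18 (1437 bases). The ratio of Krt8 to Krt18 counts was 0.898, 1.09, 0.799 and 1 in controls and 1.09, 1, 1.14 and 0.718 in Notch-active islets. The mean log2 ratio was −0.09 ± 0.19 (SD, n = 4) and −0.04 ± 0.30 (SD, n = 4), a difference of 0.05 (exact two-sided permutation test, p = 0.743), smaller than the SD of either group. Per kilobase of the annotated principal transcript, Krt18 had the highest mean level of the 10 genes in both groups (111.7 CPM per kb in controls and 153.3 in Notch-active islets). Epcam (92.4 and 114.2) and Krt8 (76.1 and 105.9) followed, and neighbours in this order overlapped between libraries. Krt7 (47.1 and 44.7), Spp1 (31.6 and 75.3) and Prom1 (10.1 and 12.99) lay lower, and Muc1 (3.19 and 4.86), Cftr (2.51 and 0.97) and Krt19 (1.65 and 3.71) lowest of the tested genes. A processed copy of Krt8 in the table, Krt8-ps, had at most 7 counts in any library. Pseudoalignment could still divide reads between related keratins, which was not tested.

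Krt7 (chromosome 15, 101411043 to 101430313), the type II keratin of ducts, was abundant in all islets, at 190.0, 187.9, 246.7 and 146.2 CPM in controls and 127.5, 202.0, 166.0 and 235.9 CPM in Notch-active islets. The ranges covered each other almost entirely. The log2 fold change was −0.08 (with standard error 0.22 and adjusted p = 0.831), and the interval from −0.58 to 0.43 includes changes of either sign. The sign was positive with upper-quartile normalization, with an offset for transcript length, without control 3 and without β-tetO-NICD library 1.

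Krt19, the type I keratin used most often to identify pancreatic ducts, was scarce. It was at 2.86, 3.38, 1.98 and 2.15 CPM in controls (50 to 80 counts) and at 4.13, 5.42, 4.25 and 9.57 CPM in Notch-active islets (87 to 190 counts). The lowest β-tetO-NICD library lay above the highest control, and library 5 was well above the other β-tetO-NICD libraries. The log2 fold change of 1.17 (standard error 0.33) had an adjusted p of 0.0597 by edgeR's quasi-likelihood test. It passed without β-tetO-NICD library 1 (1.31, adjusted p = 0.0176) and in no other fit that left out 1 library. Because a ratio of 2 genes does not depend on the scaling of the library, Krt7 was also set against Krt19. There were 66.5, 55.6, 125 and 68.0 Krt7 counts for each Krt19 count in controls and 30.9, 37.3, 39.1 and 24.6 in Notch-active islets. The groups did not overlap, and the log2 ratio was lower by a difference of −1.20 (exact two-sided permutation test, p = 0.0286, the smallest that 4 against 4 libraries allow, and 0.0572 after Benjamini-Hochberg adjustment over the 2 ratios). The adjusted value misses 0.05, and no ratio in this design could have reached a smaller raw p. The ratio is not independent of the Krt19 values above.

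Krt20, a type I keratin of intestinal and urothelial epithelium, was at or near absence. It had 6, 1, 0 and 1 counts in controls and 2, 0, 0 and 0 in Notch-active islets, so it was not tested, and no fold is given because both group means lie under the floor. Upk3a, a urothelial plaque gene, was by contrast far higher in β-tetO-NICD islets (log2 fold change 8.75, adjusted p = 4.72e-05 by edgeR's quasi-likelihood test), while Krt20, Krt5, Krt13 and the other uroplakin genes of the urothelial list did not reach the count minimum.

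**Figure D2:**
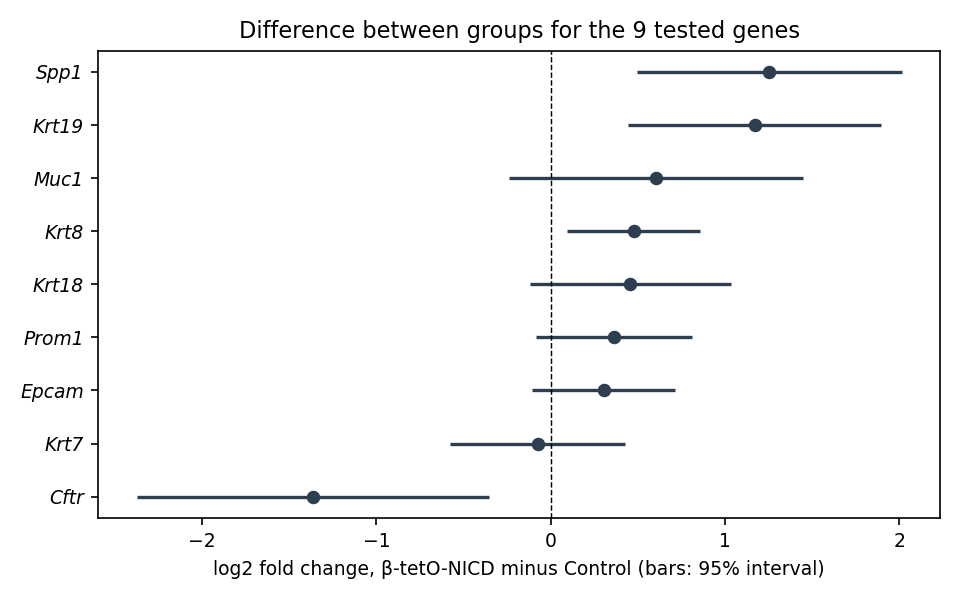
Log2 fold change (β-tetO-NICD minus control) of the 9 tested genes from edgeR's fit, with bars for the 95% interval. The intervals of Spp1, Krt19 and Krt8 lie above 0 and that of Cftr below 0 before adjustment, and those of the other 5 genes include 0.

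Spp1 (chromosome 5, 104435118 to 104441050) encodes osteopontin, a secreted phosphoprotein that binds integrins and is made by duct cells and by macrophages. It was at 48.9, 73.4, 33.4 and 34.7 CPM in controls and at 65.3, 112.1, 97.1 and 179.5 CPM in Notch-active islets. Control 2 exceeded β-tetO-NICD library 1, and the other 3 β-tetO-NICD libraries lay above all controls. The log2 fold change was 1.25 (with standard error 0.34 and adjusted p = 0.0556 by edgeR's quasi-likelihood test), with an interval from 0.49 to 2.01. The threshold was passed without control 2 (1.55, adjusted p = 0.044) and without β-tetO-NICD library 1 (1.45, adjusted p = 0.00987). Among 8 macrophage markers, Cd14 (log2 fold change 1.73) and the complement gene C1qa (0.95) were called higher, while C1qb (0.75), Fcgr1 (0.73), Lyz2 (0.07), Csf1r (0.09), Cd68 (0.00) and Adgre1 (−0.38) did not pass. Of all tested genes, 4.19% were called higher. C1qa passed in 2 of the 8 fits that left out 1 library, and neither with the sign of the length trend as covariate nor scaled to Ppia (adjusted p = 0.243). The summed level of the 8, of which C1qa was the largest part (77.6 CPM in controls and 150.4 CPM in Notch-active islets on average), was between 142.2 and 187.4 CPM in controls and between 216.9 and 312.1 CPM in Notch-active islets. The part of macrophages in the Spp1 difference was not tested.

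Of 12 tested osteopontin receptor and processing genes, 0 were called higher and 1 lower (4.19% and 2.57% of all tested genes). That gene was Itgav, the αv integrin chain of several osteopontin receptors, which measured 101.3 ± 17.8 CPM in controls and fell to 52.6 ± 8.69 CPM (SD over 4 libraries each), or −0.94 on the log2 scale (adjusted p = 0.0161 with edgeR). Itgav did not pass with the offset for transcript length (−0.53, adjusted p = 0.0531) or scaled to Ppia (−1.36, adjusted p = 0.131). The Itgav log2 fold change also lost its call without control 4 (adjusted p = 0.0512) and without β-tetO-NICD library 2 (0.0679) or 4 (0.0605). The median log2 fold change of the 12 genes was −0.07. For Cd44, another receptor, the estimate was −0.31 (adjusted p = 0.357). The related mineral-binding genes Ibsp, Dmp1, Dspp and Mepe were not tested, and 3 of these 4 had 0 counts in all libraries.

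Cftr (chromosome 6, 18170687 to 18322768) encodes the chloride and bicarbonate channel of the duct cell surface. It was at 26.8, 22.7, 7.95 and 5.72 CPM in controls and at 7.37, 5.59, 6.21 and 5.34 CPM in Notch-active islets. The controls were split, with controls 1 and 2 at least 2 times above controls 3 and 4, while the β-tetO-NICD libraries varied by only 1.38 times between the lowest and the highest. Controls 3 and 4 therefore lay among or near the β-tetO-NICD libraries. The log2 fold change was −1.37 (with standard error 0.45 and adjusted p = 0.0894 by edgeR's quasi-likelihood test), with an interval from −2.38 to −0.35. It was between −1.64 and −0.97 with 1 library left out, and passed in 0 of those 8 fits. The acinar share of counts was 7.55%, 4.25%, 3.80% and 4.33% in controls 1 to 4, and its part in the split was not tested.

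Transport genes that act beside Cftr in duct fluid secretion gave 1 call among 17 tested, higher in Notch-active islets (4.19% of all tested genes). Slc26a3, a chloride and bicarbonate exchanger, was at 2.998, 3.51, 1.74 and 1.34 CPM in controls and at 105.7, 58.2, 73.6 and 43.7 CPM in Notch-active islets. The groups were widely apart, and the log2 fold change was 4.88 (with standard error 0.39 and adjusted p = 0.00014 by edgeR's quasi-likelihood test). The other exchangers and the water channels did not pass, among them the sodium bicarbonate cotransporter Slc4a4 (0.08, adjusted p = 0.852) and Aqp1 (−0.70, adjusted p = 0.252). The secretin receptor gene Sctr and Aqp5 were below the count minimum. The median over the 17 genes was 0.01.

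None of the 3 surface proteins of the apical and lateral membrane passed the test. Muc1 (chromosome 3, 89229057 to 89233381), a membrane mucin of duct and other glandular surfaces, was at 9.04, 8.19, 3.40 and 7.96 CPM in controls and at 13.6, 7.90, 5.91 and 16.1 CPM in Notch-active islets. β-tetO-NICD libraries 2 and 4 lay within the control range, and the log2 fold change was 0.61 (interval from −0.24 to 1.45, adjusted p = 0.279). Prom1 (chromosome 5, 43993620 to 44102032), the CD133 protein of apical protrusions, was at 38.1, 42.9, 29.7 and 37.3 CPM in controls and at 44.0, 39.3, 40.01 and 67.0 CPM in Notch-active islets. Only library 5 stood clearly above the controls, and the log2 fold change was 0.36 (interval from −0.08 to 0.81, adjusted p = 0.230).

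Epcam (chromosome 17, 87635979 to 87651129), an epithelial adhesion protein also present on islet cells, was at 182.9, 176.6, 230.9 and 163.6 CPM in controls and at 175.1, 274.9, 226.6 and 255.0 CPM in Notch-active islets. The groups overlapped in libraries 1 and 4 of the β-tetO-NICD group. The log2 fold change was 0.31 (with standard error 0.18 and adjusted p = 0.264) with an interval from −0.10 to 0.72. None of 11 Epcam partners passed (0 higher and 0 lower, median 0.26, 3 at an unadjusted p under 0.05 by edgeR, 31.6% of all genes being so). Lef1 (1.75, adjusted p = 0.102) had 0 to 6 counts in controls and 11 to 17 in Notch-active islets, and so reached the count minimum only through the group where it is higher. Spint2 had an estimate of 0.77 (adjusted p = 0.0986). Tspan15 came nearest to the threshold (0.72, adjusted p = 0.0517 by edgeR and 0.00737 by DESeq2's Wald test). Every β-tetO-NICD library lay above every control for Tspan15, as in 8.22% of all genes.

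Of 10 tested membrane mucins and apical proteins, 0 were called higher and 1 lower (4.19% and 2.57% of all tested genes). Muc4, a large membrane mucin, was at 72.4, 117.6, 34.8 and 98.6 CPM in controls and at 22.5, 5.07, 6.24 and 9.12 CPM in Notch-active islets. All 4 lay below the lowest control, and Muc4 fell by 2.92 on the log2 scale (standard error 0.52, adjusted p = 0.0122 by edgeR's quasi-likelihood test). Scaled to Ppia, Muc4 did not pass (adjusted p = 0.0882). The difference of Muc4 from Muc1 was not tested.

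**Figure D3:**
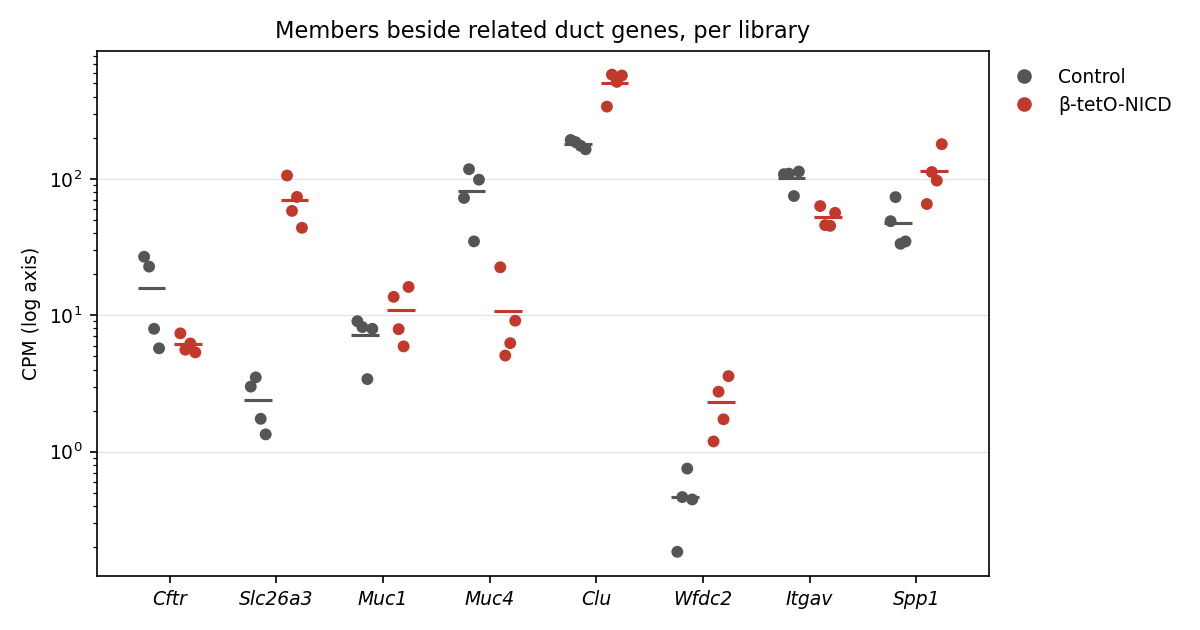
CPM (log axis) per library of Cftr, Muc1 and Spp1 beside related duct genes, with controls in grey, β-tetO-NICD in red and lines at the group means. Slc26a3, Clu, Wfdc2, Muc4 and Itgav have groups that do not overlap, while those of Cftr, Muc1 and Spp1 do.

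Other genes of duct epithelium were followed in lists. The counts of calls in this and the next paragraphs stand against 4.19% of all tested genes called higher and 2.57% called lower. Of 13 tested duct transcription factors, 1 was called higher and 0 lower. It was Ehf, an epithelial ETS factor (31.0 ± 3.16 CPM in controls and 52.1 ± 8.59 CPM in Notch-active islets, SD, n = 4 per group, log2 fold change 0.75, adjusted p = 0.0233). Ehf was not called in 6 of the 8 fits that left out 1 library, with total counts, with the Eif2s3y covariate or scaled to Ppia. Sox9, the central duct factor, was at 1.23 to 2.81 CPM in controls and at 1.53 to 6.00 CPM in Notch-active islets (log2 fold change 0.59, adjusted p = 0.385).

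Of 23 tested further duct markers, 3 were called higher and 0 lower, with a median log2 fold change of 0.26. Clu, the secreted chaperone clusterin, was at 192.6, 185.7, 174.6 and 164.5 CPM in controls and at 338.1, 580.4, 513.6 and 571.9 CPM in Notch-active islets. Its groups were far apart (log2 fold change 1.48, adjusted p = 0.00288 by edgeR's quasi-likelihood test), and it passed in all 8 fits that left out 1 library but not scaled to Ppia (adjusted p = 0.0888). Ambp, a secreted protease inhibitor precursor, rose by 1.14 (adjusted p = 0.0168) and Wfdc2, a whey acidic protein family member, by 2.29 (adjusted p = 0.0223). Each of these 2 passed in 4 of the 8 fits, and neither passed with the sign of the length trend as covariate or scaled to Ppia. Wfdc2 was scarce, with 4, 11, 19 and 11 counts in controls and 25, 63, 52 and 71 in Notch-active islets. The duct genes Pkhd1 (−0.93, adjusted p = 0.150), Tff2 (0.83, adjusted p = 0.168) and Bicc1 (0.13, adjusted p = 0.743) did not pass.

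Keratins outside the set were mostly silent. Of 49 other keratin genes in the table, 19 had 0 counts in all 8 libraries and 10 reached the count minimum, so the 10 are a selected part of the family, and no support is drawn from their median or from the count of calls among them. Of the 10, 4 were called higher and 0 lower, at levels far under those of Krt8. Krt25 and Krt77 were under 10 counts in every control and reached the minimum only through the β-tetO-NICD libraries, where they were high. Without a filter on low counts, the Krt25 log2 fold change had an adjusted p of 0.00274 by edgeR and the Krt77 log2 fold change one of 0.0386. Krt90, a type II keratin gene, was at 0.55, 0.97, 0.83 and 0.61 CPM in controls and at 2.57, 9.35, 8.33 and 5.74 CPM in Notch-active islets (log2 fold change 3.12, standard error 0.42, adjusted p = 0.00318 by edgeR's quasi-likelihood test). Its groups did not overlap, and it passed in all 8 fits that left out 1 library.

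Krt25, a type I keratin of the hair root sheath, had 0 counts in all controls and between 10 and 25 counts in β-tetO-NICD libraries, at least 5.83-fold higher when each control is set to its floor of 3 counts (adjusted p = 0.00397). Krt77 (log2 fold change 2.24, adjusted p = 0.0310) and Krt10 (0.98, adjusted p = 0.0357), keratins of stratified epithelium, were called, and Krt77 passed in 1 of the 4 fits in which it could be tested with 1 library left out, Krt10 in 2 of 8. Neither passed with the Eif2s3y covariate or scaled to Ppia, and Krt10 did not pass with the sign of the length trend as covariate or the replicate block. Krt1, the usual partner of Krt10, did not pass (0.95, adjusted p = 0.0644). Krt80 had a negative estimate (−2.04, adjusted p = 0.0597 by edgeR, 0.0441 by limma-voom and 0.0032 by DESeq2). Its groups did not overlap, with β-tetO-NICD library 5 at 0.302 CPM against 2.40 to 4.61 CPM in the others. Krt25 and Krt10 are on chromosome 11 (99315516 to 99322951 and 99385254 to 99389364), as are Krt19 (100140810 to 100148665) and Krt20 (99428403 to 99438150).

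**Figure D4:**
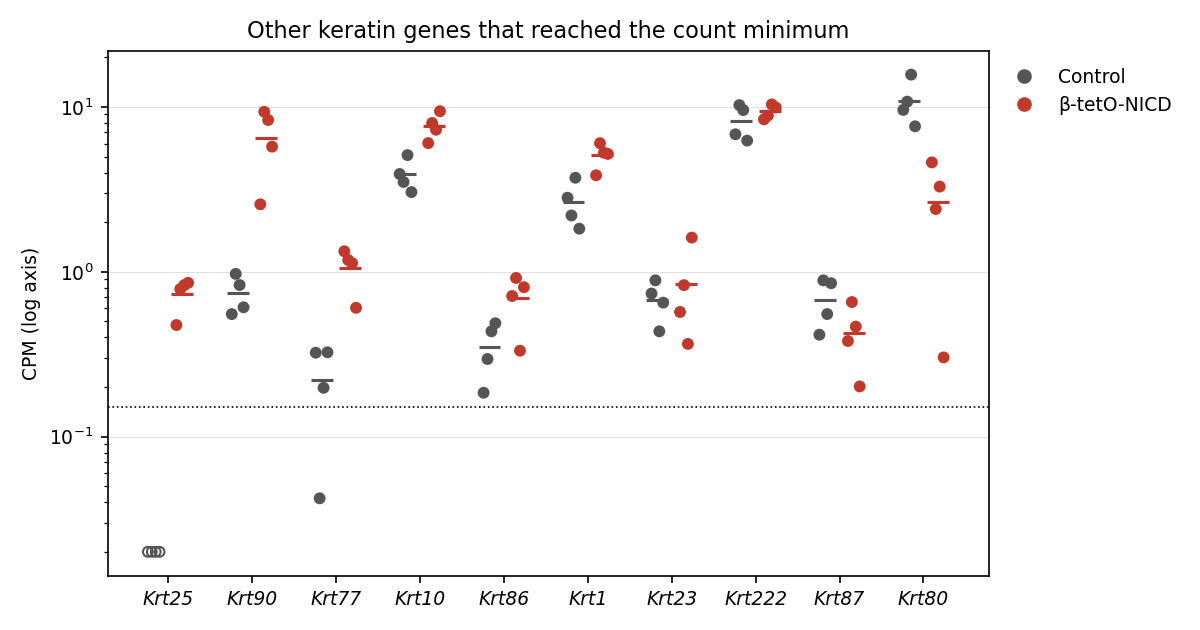
CPM (log axis) of the 10 other keratin genes that reached the count minimum, ordered by log2 fold change, with controls in grey, β-tetO-NICD in red and lines at the group means. Open circles stand for 0 counts, the dotted line is the highest floor (0.151 CPM), and Krt25, Krt90, Krt77 and Krt10 were called higher.

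Proteins that anchor keratin filaments, desmosome parts and other intermediate filaments gave 2 calls among 16 tested genes, both higher. Nes, which encodes the intermediate filament protein nestin, rose by 3.21 on the log2 scale, with means of 11.6 ± 3.78 CPM in controls and 107.1 ± 26.5 CPM in Notch-active islets (SD over 4 libraries each, adjusted p = 0.000157 by edgeR's quasi-likelihood test). Evpl, the cytolinker envoplakin, rose by 0.88 (adjusted p = 0.0409), a call kept by 2 of 8 fits with a library left out and by 9 of the 15 other alternatives. Limma-voom did not call it (adjusted p = 0.0538). Plectin (Plec) and vimentin (Vim) did not pass (−0.66, adjusted p = 0.191, and 0.59, adjusted p = 0.153).

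For comparison, 5 of 7 canonical Notch target genes were called higher and 0 lower, with Hes1 at a log2 fold change of 2.61 and Nrarp at 3.36. Hes5, which is 1 of the 5, was read 0 or 1 times per control library and reached the count minimum only through the β-tetO-NICD libraries.

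Levels of other cells that carry keratins or ducts were read beside these values. The summed level of 15 acinar markers was between 38980 and 78200 CPM in controls and between 32750 and 118200 CPM in Notch-active islets, with 0 of 15 called, and the highest value was that of β-tetO-NICD library 1. Among these, Ctrb1 and Pnlip were the most abundant on average over the 8 libraries (log2 fold changes 0.58 and 0.53). Of the 8 mesothelial markers 3 were tested. Msln (−2.34, adjusted p = 0.00473) and Gpm6a (−1.28, adjusted p = 0.0048) were called lower, the latter not when scaled to Ppia (adjusted p = 0.0502), and Wt1 did not pass (0.72, adjusted p = 0.348). The summed level, most of it Msln (81.5 CPM in controls and 16.1 CPM in Notch-active islets on average), was between 76.2 and 157.8 CPM in controls and between 17.9 and 32.0 CPM in Notch-active islets. The defining mesothelial genes Upk3b and Lrrn4 were at or under 1.24 CPM in every library, with Upk3b at 0 counts in all controls and at 26, 0, 2 and 3 counts in Notch-active islets. Bnc1 had 1, 0, 0 and 0 counts in controls and 4, 4, 7 and 2 in Notch-active islets. The parts of acinar and mesothelial cells in the keratin values were not tested.

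Calls in the other marker lists are given beside the 4.19% of all tested genes called higher and the 2.57% called lower. Among α cell markers 3 of 6 were called higher (Gcg 1.44 and Ttr 1.34 were the most abundant and did not pass) and among β cell markers 3 of 9 lower (Ins2 −0.56 and Ins1 −0.65 did not pass). Of the δ and PP cell markers 1 of 4 was called higher (Sst 1.46 and Ppy −0.78 did not pass). Endothelial (Plvap 0.51 and Kdr −0.24), stellate or fibroblast (Rgs5 0.02 and Col3a1 0.30) and lymphocyte markers (Cd79a 0.48 and Cd3d 0.38) gave 0 calls. The intestinal list gave 1 lower call among 3 tested (Olfm4 −1.27, beside Vil1 −0.24, with the call kept in 4 of 8 fits that left out 1 library and 12 of 15 other alternatives) and the tuft cell list 1 lower among 4 (Trpm5 −2.10, beside Dclk1 0.00). The centroacinar list, which shares Spp1 and Cftr with the set, gave 2 of 7 called higher (Hes1 and Aldh1b1), with Cd24a at 0.53.

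The length trend was carried through to each gene. Within the 4 libraries of positive trend (controls 1, 2 and 4 against β-tetO-NICD library 1), the log2 ratio of means was 0.56 for Krt19, 0.32 for Spp1, 0.14 for Krt8 and −1.32 for Cftr. Within the 4 of negative trend (control 3 against β-tetO-NICD libraries 2, 4 and 5), it was 1.70, 1.96, 0.43 and −0.48. These values keep their sign in both parts, each with 1 library on a side and so without a test. The other tested genes also kept their sign, Krt7 among them (−0.45 and −0.29), so this does not set the named genes apart. With an offset for transcript length, the log2 fold changes were 0.75 for Krt19, 0.80 for Spp1, 0.19 for Krt8, 0.03 for Krt18 and −1.01 for Cftr, and 0 of the 9 genes passed.

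**Figure D5:**
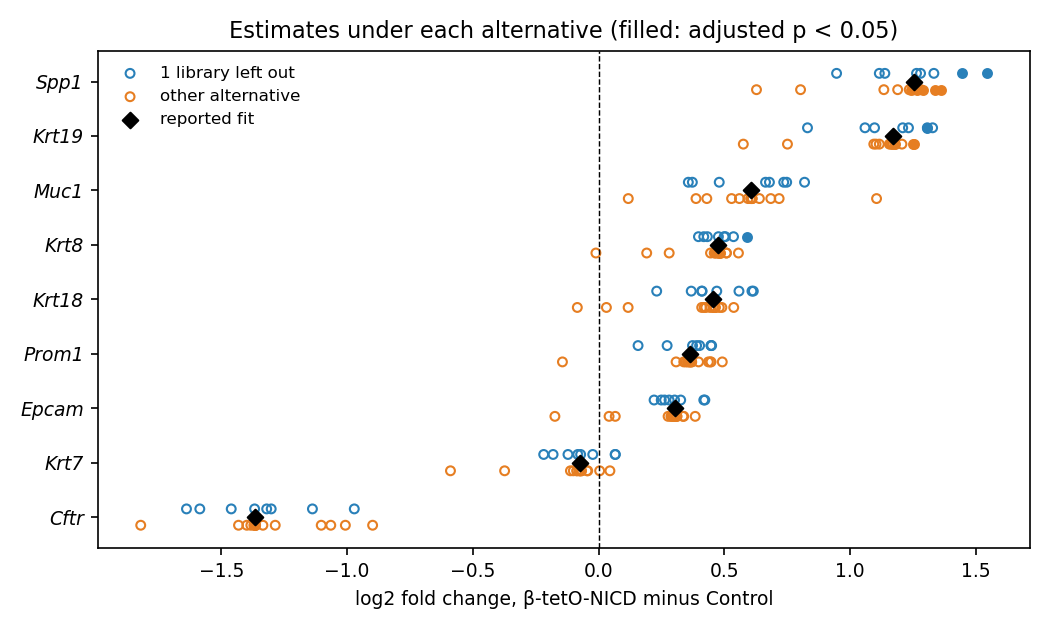
Log2 fold change (β-tetO-NICD minus control) of each tested gene in the reported fit (black diamond), with 1 library left out (blue) and under the 15 other alternatives (orange). Filled circles passed at an adjusted p under 0.05, which happened for Spp1, Krt19 and Krt8, and for Cftr with DESeq2 alone (partly hidden by the diamond), and the estimates of Spp1, Krt19 and Muc1 lie above 0 and those of Cftr below 0 throughout.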

How the data were processed

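Stranded poly(A) libraries were made from islet RNA, and Kallisto was run by the authors against GRCm38 transcripts. The authors deposited whole-number counts per gene symbol, not normalized. Versions of Kallisto and of the annotation are not given in the sources used here. A second deposited table holds the authors' own limma comparison (log2 fold changes, mean expression, t, p values, log odds) and was not used. Groups and replicates came from the sample labels. Columns 4 and 5 of the β-tetO-NICD group were used as replicates without a mouse.

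The quasi-likelihood test of edgeR 4.0.16 (R 4.3.3, TMM, no covariate) was applied to the 15082 genes that reached 10 counts in 4 or more libraries, and p values were adjusted over all of them by the Benjamini-Hochberg method. CPM are scaled to TMM library sizes. Standard errors are the absolute log2 fold change over the square root of F. Ratios were compared over the 70 arrangements of 4 against 4 libraries, with 0.5 counts added. Libraries within a group differed by at least 31.5 in chi-square per gene, so each counted once. Lengths came from GENCODE M21 (97.2% of tested genes) and promoters from RefSeq. With 21701223 to 26413146 counts per library, precision is limited by variation between libraries and not by counting, except under about 1 CPM. The p values set the difference between groups against that variation, in which differences between mice and between preparations are not separated. DESeq2 1.42.0, limma-voom (limma 3.58.1), other scalings, filters, covariates and leaving out each library were alternatives.

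Members and lists were chosen with earlier results of these data known. Named genes were all members, the called genes of each related list (at most 4 in each direction by p, or the 2 largest estimates where none passed), the 2 most abundant genes of each cell type list, and Notch1. Krt1, Krt80, Cd14, Cd44, Aldh1b1, Sox9, Slc4a4, Aqp1, Pkhd1, Tff2, Bicc1, Plec and Vim were named after their values were seen, as were Klf5, Mmp7, Mmp3, Upk3b, Lrrn4, Bnc1, Wt1, Csf1r, Cd68, Adgre1, C1qb, Fcgr1 and Tspan15.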

Additional observations from a re-analysis of the deposited data

Results flagged for a closer look

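For the named genes, the distance of the highest or lowest library from the next one was taken as a share of the range of log2 CPM over the 4 libraries of a group. Of 110 groups, 9 exceeded the 95% critical value, where chance gives about 5.5, since about 1 in 20 groups does so. Among duct and simple keratin genes, Muc1 was low in control 3 (gap 0.868 of the range, 86 counts against 194 to 196), and Krt20 was highest in β-tetO-NICD library 1 (gap 1, 2 counts against 0 in the others, within counting error). Of the related genes, Krt25 was lowest in β-tetO-NICD library 1 (gap 0.850, 10 counts against 17 to 25), and Nes was highest in library 4 (gap 0.888, 4417 counts against 1918 to 2099). Control 3 also had the lowest Itgav (gap 0.891), the highest Nrarp (gap 0.842) and the highest Upk3a (gap 0.957) of the controls. Control 1 had the highest Pnlip (gap 0.916), and β-tetO-NICD library 2 the lowest Gpm6a of its group (gap 0.888). No cause was tested for any of these.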

How the results depend on the processing

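The count of duct and simple keratin genes called higher was 0 in the reported fit and 3 with DESeq2. It was 2 with upper-quartile normalization and 2 with the Eif2s3y covariate, Krt19 and Spp1 both times. It was 1, namely Spp1, both without a filter on low counts and with at least 10 counts in every library. It was between 0 and 3 with 1 library left out, the 3 coming without β-tetO-NICD library 1. The count called lower was 0, and 1 with DESeq2. Over all genes, 632 were called higher and 388 lower, against 1495 and 1244 with DESeq2, and the number called lower was 619 with the acinar covariate, 257 with the Eif2s3y covariate and 788 with the length offset, where 50.7% of calls were higher against 62.0%. With the sign of the length trend as covariate, an alternative chosen after seeing the data, the counts were 362 and 246. With 1 library left out they were between 222 and 2423 higher and between 97 and 2531 lower, the highest counts coming without β-tetO-NICD library 1 and the lowest without library 2. Related list genes called numbered 18, and between 9 and 37 with 1 library left out.

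Scaling to Ppia, also chosen after seeing the data, moved the median log2 fold change of all genes to −0.427, and 92 genes were called higher and 69 lower, with 9 related list genes called. There the signs of Krt8 (−0.010), Krt18 (−0.084), Prom1 (−0.14) and Epcam (−0.17) turned, all above that median, as did those of Lyz2 (−0.39), Rgs5 (−0.45), Col3a1 (−0.19), Dclk1 (−0.39) and Cd3d (−0.29). Krt7 turned to 0.004528 with upper-quartile normalization and 0.045 with the length offset, and lay between −0.218 and 0.067 with 1 library left out. The length offset also turned Kdr (0.070), Lyz2 (−0.33) and Cd3d (−0.064), the trend covariate turned Kdr (0.13), and total counts turned Rgs5 (−0.027) and Dclk1 (−0.015). With 1 library left out, Rgs5 lay between −0.090 and 0.19, Dclk1 between −0.17 and 0.29, Lyz2 between −0.16 and 0.47 and Cd3d between −0.17 and 0.78. The log2 difference of the Krt8 to Krt18 ratio lay between −0.029 and 0.195 with 1 library left out, and that of the Krt7 to Krt19 ratio between −1.341 and −0.954.

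With the replicate number as a block, which is settled only for numbers 1 and 2, 970 genes were called, 0 of them duct or simple keratin genes. The deviations of same-numbered libraries correlated at 0.276 for number 1 and −0.0901 for number 2. Differently numbered libraries were not compared, so these values cannot settle whether same-numbered samples were paired. Causes of these shifts were not tested.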

Other observations

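The split of the controls seen for Cftr was looked for elsewhere, after its values were seen. Of 15082 tested genes, 49 (0.325%) had both controls 1 and 2 over 2 times above both controls 3 and 4. Of the 127 tested duct and keratin genes and related list genes, 4 did so, namely Cftr, the transcription factor gene Klf5 and the metalloproteinase genes Mmp7 and Mmp3. Cftr prompted the rule and so lends it no support, and Mmp3 had only 11, 37, 0 and 0 counts in controls 1 to 4. Klf5 was at 11.4, 9.88, 3.68 and 2.64 CPM in controls 1 to 4 and Mmp7 at 3.37, 2.32, 0.55 and 0.41 CPM. Krt19, Spp1, Muc1 and Prom1 were also higher in controls 1 and 2 than in controls 3 and 4, by less than 2 times between the nearest libraries. Prom1 was nearly tied, at 38.05 CPM in control 1 and 37.26 CPM in control 4. Krt7, Krt8, Krt18 and Epcam were not ordered this way, as control 3 was the highest control for each. The share of all tested genes ordered this way was not counted, so nothing is drawn from it.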
